A study of Mus musculus with 10 samples.

Results

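The genes described here encode the protein factors that start and extend translation: the eukaryotic initiation factors eIF1 to eIF6 and the elongation factors eEF1 and eEF2. They were taken by symbol, as every gene beginning with Eif1 to Eif6 or with Eef1 or Eef2, without the eIF4E-binding proteins. The rule found 59 of the 17919 genes in the tables, and it used no measured value. The members were placed in 13 groups by factor complex or factor name, so not every group is a single complex.

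The cells were neural stem cells of the ICR mouse strain, isolated from embryonic ventral midbrain at day 10. They had been transduced with a lentivirus expressing Lin28a or with a mock control virus, were passaged in culture every 4 days, and were sampled at passage 1 (P1) and passage 3 (P3). Poly(A) RNA-seq covered both viruses at both passages. Polysome-seq, which sequences RNA recovered from ribosome-bearing fractions of a sucrose gradient, covered both viruses at P3. These 6 libraries are 6 groups of 1 library each, so the differences below have no replicate check, no test was run, and each describes these libraries alone. The RNA-seq levels are FPKM and the polysome levels RPKM, both of them reads scaled to gene length and library size.

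Translation of most mRNAs begins when eIF4E binds the cap, eIF4G and the helicase eIF4A join it, and eIF3 brings in the small ribosomal subunit carrying eIF1, eIF1A and the eIF2 complex with the initiator tRNA. eIF2B recharges eIF2 with GTP, and the eIF2 kinases slow initiation by phosphorylating eIF2. eEF1A then delivers each aminoacyl-tRNA, eEF1B recharges eEF1A, eEF2 moves the ribosome along and eIF5A helps at difficult peptide bonds. Many elongation factor mRNAs and some initiation factor mRNAs begin with a run of pyrimidines, the terminal oligopyrimidine (TOP) motif, through which their translation follows growth signals.

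Lin28a, the RNA-binding protein carried by the virus, was at 0.128 FPKM in control and 478 in Lin28a at P1, and at 0.0620 and 104 at P3. In polysomes its value was the file's floor in control, and 17.9 RPKM in Lin28a. Marker genes of the labelled stem cells and of other cell types differed in level between the passages. The 8 neural progenitor genes had a median level of 120 and 118 FPKM at P1 in control and Lin28a and of 60.2 and 79.7 at P3, while their sum was 3461 and 3154 at P1 and 6043 and 4134 at P3. In each culture 5 of the 8 were higher at P3 and 3 lower. The summed level of 10 neuronal genes was 1093 and 925 at P1, and 279 and 481 at P3. That of 7 astroglial genes was 314 and 238 at P1, and 4267 and 1897 at P3, and that of 8 oligodendrocyte-lineage genes was 183 and 111 at P1, and 1951 and 1206 at P3. The sum of 6 proliferation genes was 512 and 580 at P1, and 273 and 361 at P3. The 5 microglial genes never summed to more than 0.609 in any library, and the 5 endothelial genes summed to between 3.51 and 9.01. In bulk RNA, fewer cells of a type and less RNA per cell cannot be told apart. The part of these shifts in the differences between passages below was not tested.

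The TOP list, 10 of the members, holds genes whose mRNAs are known to carry the motif: Eef1a1, Eef1b2, Eef1d, Eef1g, Eef2, Eif3a, Eif3e, Eif3f, Eif3h and Eif4b. The first bases of some of their transcripts are shown because the medians of the list and of the other members lay on opposite sides of 0 across passages. The RefSeq table of gene starts (build GRCm38.p6) holds 6 of the 10. Each line gives 30 bases, from 10 before the annotated start to 20 from the start on, with the longest run of C and T that lies within 5 bases of the start in capitals. The Eif3f window is chr7:108934405-108934434 on the plus strand, and the Eef1a1 window chr9:78481705-78481734 on the minus strand. The Eef2 window is chr10:81176621-81176650 on the plus strand, and the Eif4b window chr15:102073763-102073792 on the plus strand.
Eif3f: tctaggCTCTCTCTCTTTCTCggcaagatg
Eef1a1: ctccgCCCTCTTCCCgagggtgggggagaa
Eef2: aaggCCgggcgttgacgtcagcggtctctt
Eif4b: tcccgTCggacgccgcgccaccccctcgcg
The run was 15 bases long at the Eif3f start and 10 at the Eef1a1 start. It was 2 bases at the annotated starts of Eef2 and Eif4b, counting only runs that lie within 5 bases of the start, and longer runs stand elsewhere in both windows. A run of 8 or more lay at 2 of the 6 TOP-list starts, at 8 of the 57 starts of the other members, at 24 of the 76 starts of cytosolic ribosomal protein genes and at 9.379% of all 32851 starts in the table. Some genes have more than 1 annotated start and are counted at each. The 57 starts belong to 42 of the other members, the 76 to 64 genes and all starts to 27025 genes. A stricter form asks for a C at the start itself with 4 pyrimidines after it. It was met at 1 of the 6 TOP-list starts, 1 of the 57, 13 of the 76 and 2.505% of all starts. Eif3f met it, and the annotated starts of Eef1a1, Eef2 and Eif4b did not.

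The factor genes were among the most abundant mRNAs of these cells. Their levels summed to 2.40% of all FPKM in the P1 control library, 2.34% in P1 Lin28a, 2.13% in P3 control and 2.46% in P3 Lin28a. In the polysome libraries they summed to 1.86% of all RPKM in control and 1.65% in Lin28a. The median member lay at percentile 94.2 of all genes in P1 control and at 90.9 in P3 control, and between 30 and 33 members lay in the top 10% of each RNA-seq library. At least 58 of the 59 members were at 1 FPKM or RPKM or more in each library. The abundance was uneven: Eef1a1 alone held 39.8% of the members' sum in P1 control and 47.5% in P3 control, while Eif4e3 and Eef1a2 were below 11 FPKM throughout.

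**Figure D1:**
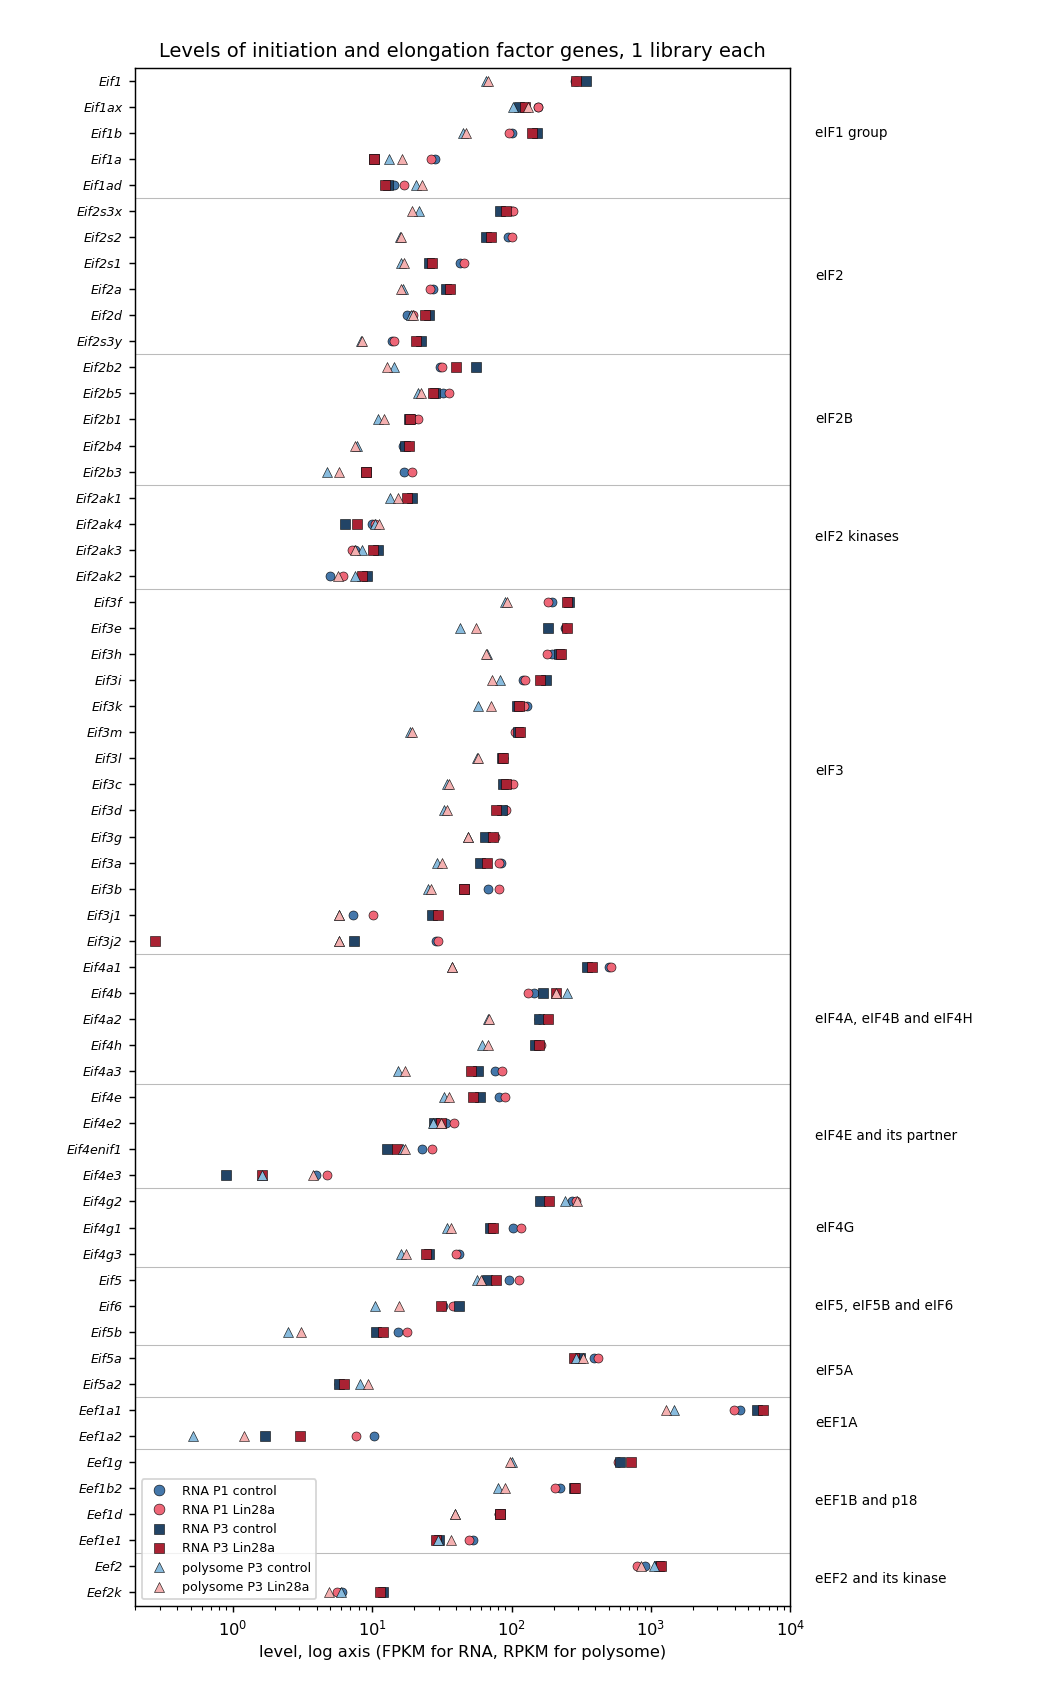
Level of each of the 59 factor genes (rows, by factor group) in the 6 libraries, on a log axis in FPKM for RNA-seq and RPKM for polysome-seq, 1 point per library. Eef1a1 lies farthest right in every library, and the polysome points (triangles) of most eIF3 subunits and of Eif4a1 lie to the left of their RNA-seq points. The median of all genes at P3 was also lower in polysome-seq, at 4.53 and 4.85 RPKM in control and Lin28a beside 5.95 and 6.08 FPKM.

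Differences are log2 ratios after 1 was added to each value, which understates those of weakly expressed genes. A gene entered a comparison if either library had it at 1 or more, and differences past 1.5-fold and 2-fold on this scale were counted. All 59 members entered each comparison of 2 libraries.

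Across passages, cap-binding and scaffold genes were lower at P3 in both cultures, while the elongation factor genes Eef1a1, Eef1b2 and Eef2 were higher. Of the 59 members, 24 were higher and 35 lower at P3 in control, where 49.7% and 50.3% of all genes were. The same numbers of members held in Lin28a, where 49% and 51% of all genes were. Past 1.5-fold, 6 were higher and 10 lower in control, against a background of 22.6% and 19.8% of all genes. In Lin28a 4 were higher and 14 lower, against 18.2% and 14.8% of all genes. Past 2-fold, 1 was higher and 4 lower in control, where 11.5% and 8.14% of all genes were. In Lin28a 1 was higher and 5 lower, where 8.38% and 4.8% were. The 1 higher was Eif3j1 in both cultures, and Eif3j2 was among the lower ones in both. The separate values of these 2 genes are uncertain, as described below. The members' share past these folds was thus near or below that of all genes, apart from the members lower in Lin28a. The members' median log2 ratio was -0.10 in control and -0.15 in Lin28a, beside 0.00 and -0.01 over all genes.

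The 2 cultures share no library in this comparison. All 10 members lower past 1.5-fold in control were also among the 14 in Lin28a, which is 100% of the first list and 71.4% of the second, beside 60.01% and 81.59% for the same lists over all genes. Eif4g1, Eif4e, Eif3b and Eif4a3 were past that fold in Lin28a alone. Eef2k and Eif3j1 were higher past 1.5-fold in both, the separate value of Eif3j1 being uncertain. The sign was the same in 53 of the 59 members, which is 89.8%, and in 86.7% of 12723 genes. Across members Pearson's r between the passage ratios of the cultures was 0.84, and 0.90 without Eif3j1 and Eif3j2, beside 0.90 across those genes. These are descriptions across genes, which are not independent of each other. Scaling the libraries to their upper quartile puts the median of all genes at -0.11 in control. The members then divide into 18 higher and 41 lower in control, beside 44.0% and 56.0% of all genes. In Lin28a they divide into 21 and 38, beside 46.1% and 53.9% of all genes.

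**Figure D2:**
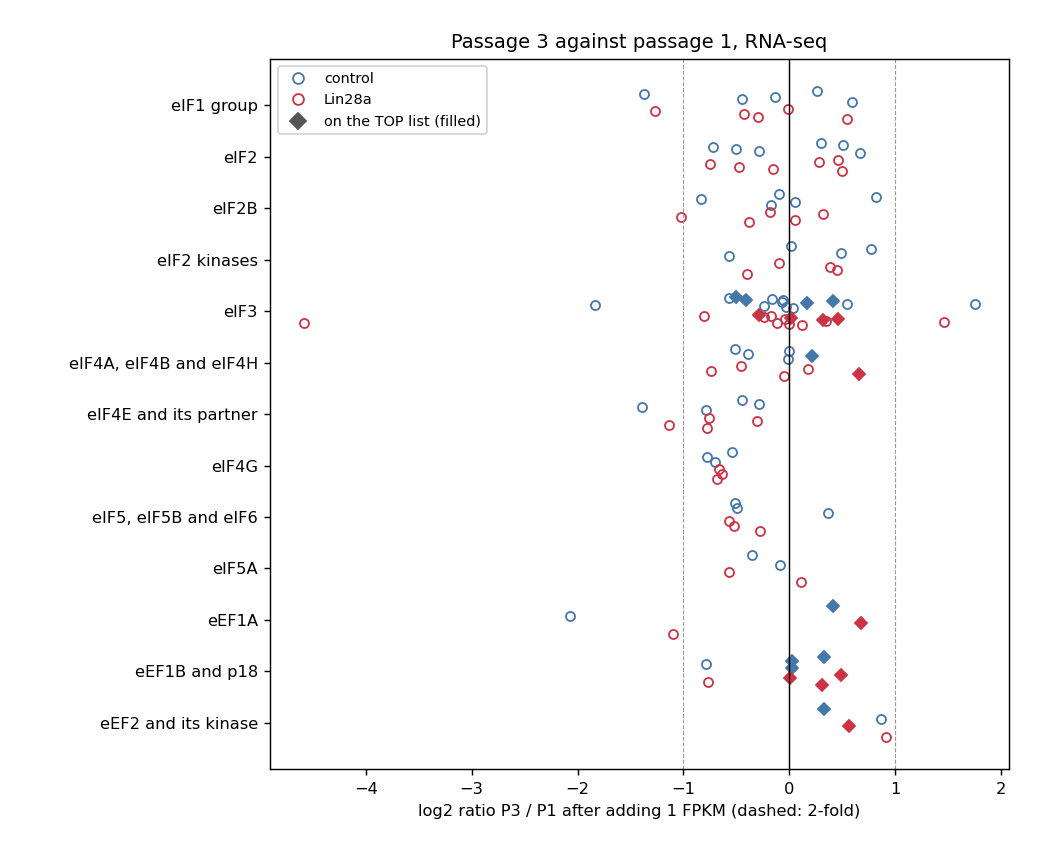
Log2 ratio of P3 to P1 (x axis, after adding 1 FPKM) for each factor gene, by factor group, in the control and Lin28a cultures, 1 ratio per gene and culture, with filled symbols for the TOP list. The eIF4E and eIF4G rows lie left of 0 in both cultures, and the filled symbols in the elongation factor rows lie at or right of 0 with the values as deposited.

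The TOP list stood on the other side of 0 from the rest. In control, 8 of its 10 members were higher and 2 lower at P3, with a median of 0.20, while the other 49 members divided into 16 higher and 33 lower with a median of -0.18. In Lin28a, 9 were higher and 1 lower with a median of 0.39, while the other members divided into 15 and 34 with a median of -0.28. With upper-quartile scaling the list's division became 6 higher and 4 lower in control and 7 and 3 in Lin28a. The exceptions were Eif3a, at -0.50 in control and -0.28 in Lin28a, and Eif3e, at -0.40 in control and 0.02 in Lin28a. The cytosolic ribosomal protein genes, whose mRNAs also carry TOP motifs, divided into 78 higher and 4 lower of 82 compared in control, with a median of 0.38. In Lin28a they divided into 75 and 7, with a median of 0.45. The list was put together from knowledge of the motif with earlier results of these data in view, so its counts are no independent evidence.

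Other genes of the translation machinery lay on either side. Of 20 cytosolic tRNA synthetase genes, which charge tRNAs with amino acids, 18 were lower at P3 in control and 17 in Lin28a, with medians of -0.43 and -0.41. Of 6 termination and recycling genes, 5 were lower in control and 6 in Lin28a, with medians of -0.47 and -0.47. Of 20 regulators of initiation, such as the eIF4E-binding proteins and poly(A)-binding proteins, 9 were higher and 11 lower in control and 10 and 10 in Lin28a. Of 9 mitochondrial translation factors, 6 were higher and 3 lower in control and 4 and 5 in Lin28a. Of 15 targets of Atf4, the factor translated when eIF2 is phosphorylated, 7 were higher and 8 lower in control and 6 and 9 in Lin28a.

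Eef1a1 encodes the main form of eEF1A and was the most abundant member. Its RNA was at 4332 FPKM in control and 3934 in Lin28a at P1, and at 5781 and 6311 at P3. Both P3 libraries were above both P1 libraries, with log2 ratios of 0.42 in control and 0.68 in Lin28a. Eef1a1 has many processed copies in the genome, and how the counting placed reads shared with them is not stated in the labels. Its paralog Eef1a2, the form that replaces it in mature neurons and muscle, was at 10.4 FPKM in control and 7.61 in Lin28a at P1, and at 1.71 and 3.02 at P3. Both P3 libraries were below both P1 libraries. The ratio was -2.07 in control, the lowest of any member there, and -1.10 in Lin28a. All 10 neuronal marker genes were also lower at P3, their median being -2.51 in control and -1.10 in Lin28a, and their part in the Eef1a2 ratio was not tested. Eef1a2 made up 0.239% of the pair's level in P1 control and 0.0296% in P3 control.

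Eef2, the translocase of elongation, was at 904 and 795 FPKM at P1 in control and Lin28a and at 1135 and 1179 at P3. The P3 libraries were the higher ones in both cultures, by 0.33 and 0.57 on the log2 scale. Eef2k, the kinase that inhibits eEF2, was at 6.11 and 5.58 at P1 and at 11.96 and 11.42 at P3. Its P3 levels were again above both P1 levels, and its ratios of 0.87 and 0.92 were larger than those of Eef2. The kinase and its target were thus both higher at P3 in both cultures.

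Of the eEF1B complex, which recharges eEF1A, Eef1b2 was at 222 and 204 FPKM at P1 in control and Lin28a and at 279 and 287 at P3, ratios of 0.33 and 0.49. Eef1g, its gamma subunit, was at 589 and 580 at P1 and at 600 and 722 at P3, so that the P3 Lin28a library stood above the other 3. Eef1d, the delta subunit, was between 81.0 and 82.8 FPKM in all 4 RNA-seq libraries. Eef1e1 encodes p18, a small protein of the multi-synthetase complex. It was at 53.2 and 49.7 at P1 and at 30.4 and 28.9 at P3, ratios of -0.79 and -0.76. It was the only gene of this group past 1.5-fold, on the low side like most tRNA synthetases.

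All 4 genes of the eIF4E group and all 3 eIF4G genes were lower at P3 in both cultures, where 50.3% and 51% of all genes were. The 2 groups, which lay on the same side, were pooled for the next values. Together they had a median of -0.70 in control and -0.69 in Lin28a. Of the 7, 4 were lower past 1.5-fold in control and 6 in Lin28a, where 19.8% and 14.8% of all genes were. Their direction held with the median of all genes set to 0, with upper-quartile scaling and with a pseudocount of 0.1. Eif4e, the cap-binding protein itself, was at 81.5 and 90.4 FPKM at P1 in control and Lin28a and at 59.5 and 53.0 at P3. Both P3 levels lay below both P1 levels. Eif4e2, a cap-binding protein that represses translation, was at 34.0 and 38.8 at P1 and at 27.7 and 31.3 at P3. Eif4e3, a low member, was at 3.98 and 4.78 at P1 and at 0.897 and 1.62 at P3, ratios of -1.39 and -1.14. Eif4enif1, which carries eIF4E into the nucleus and into P-bodies, was at 22.9 and 26.7 at P1 and at 12.8 and 15.2 at P3. Every gene of the group thus had both of its P3 levels below both of its P1 levels.

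Of the scaffolds, Eif4g1 was at 103 and 118 FPKM at P1 in control and Lin28a and at 70.5 and 73.8 at P3. Eif4g2, also called DAP5, lacks the eIF4E-binding part and serves initiation that does not depend on the cap. It was at 273 and 288 at P1 and at 159 and 185 at P3, ratios of -0.78 and -0.64. Eif4g3 was at 42.2 and 40.0 at P1 and at 25.6 and 24.5 at P3. The order Eif4g2, Eif4g1, Eif4g3 held in every library, with Eif4g2 at between 69.3% and 72.6% of its sum with Eif4g1 in the RNA-seq libraries. The 6 proliferation genes were also all lower at P3, their median being -0.86 in control and -0.32 in Lin28a, and their part in these ratios was not tested.

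The helicase genes differed among themselves. Eif4a1 was at 498 and 514 FPKM at P1 in control and Lin28a and at 349 and 375 at P3, ratios of -0.51 and -0.45. Eif4a2, its close relative, was at 157 and 161 at P1 and at 157 and 182 at P3. The share of Eif4a2 in the pair was thus 23.9% and 23.8% at P1 and 31.1% and 32.7% at P3. Eif4a3, which acts in the exon junction complex rather than in initiation, was at 75.6 and 85.4 at P1 and at 57.6 and 50.8 at P3. Eif4b, which stimulates eIF4A and is on the TOP list, was at 144 and 131 at P1 and at 168 and 208 at P3, ratios of 0.22 and 0.66. Eif4b and Eef1a1 were the only TOP-list members past 1.5-fold in Lin28a, and none was in control.

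In the eIF2 group, Eif2s1, the alpha subunit that the eIF2 kinases phosphorylate, was at 42.6 and 45.8 FPKM at P1 in control and Lin28a and at 25.5 and 26.8 at P3, ratios of -0.72 and -0.75. The gamma subunit has 2 genes, on X and on Y. Eif2s3x was at 101 and 102 at P1 and at 83.1 and 91.9 at P3. Eif2s3y was at 13.8 and 14.3 at P1 and at 22.6 and 20.7 at P3, ratios of 0.67 and 0.50. The Y copy was higher at P3 than at P1 and the X copy lower, while the X copy stayed the more abundant. The share of Eif2s3y in the pair was thus 12.03% and 12.31% at P1 and 21.4% and 18.4% at P3. The share also depends on how many of the pooled cells carry a Y chromosome, which the labels do not state.

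The 2 gamma-subunit starts are shown for comparison, with capitals as above. Their windows in GRCm38.p6 are chrX:94212632-94212661 on the minus strand and chrY:1010585-1010614 on the plus strand.
Eif2s3x: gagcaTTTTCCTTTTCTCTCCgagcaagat
Eif2s3y: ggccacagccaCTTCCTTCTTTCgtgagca
Both hold a long pyrimidine run, of 16 bases at Eif2s3x and 12 at Eif2s3y, although neither gene is on the TOP list. The Eif2s3x start also met the stricter form, and the Eif2s3y start did not.

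The 5 eIF2B subunits lay between 16.6 and 32.1 FPKM in P1 control and diverged by P3. Eif2b2, the beta subunit, was at 30.8 and 31.7 at P1 in control and Lin28a and at 55.2 and 39.8 at P3, ratios of 0.82 and 0.32. Eif2b3, the gamma subunit, was at 16.9 and 19.4 at P1 and at 9.06 and 9.05 at P3, ratios of -0.83 and -1.02. The other 3 subunits lay between -0.38 and 0.06 in both cultures. Of the eIF2 kinases, Eif2ak1, the heme-regulated kinase, was at 19.0 and 19.1 at P1 and at 19.3 and 17.8 at P3. Eif2ak2, the kinase activated by double-stranded RNA, was at 4.96 and 6.18 at P1 and at 9.16 and 8.41 at P3. Eif2ak3, the kinase of the endoplasmic reticulum, was at 7.60 and 7.16 at P1 and at 11.1 and 10.1 at P3, ratios of 0.49 and 0.45. Eif2ak4, which responds to uncharged tRNA, was at 9.91 and 10.6 at P1 and at 6.36 and 7.79 at P3. Eif2ak2 and Eif2ak3 were thus higher at P3 and Eif2ak4 lower in both cultures, while Eif2ak1 lay within 0.1 of 0.

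Of the genes of start-site selection, Eif1 was at 284 and 294 FPKM at P1 in control and Lin28a and at 342 and 292 at P3. Eif1b, its paralog, was at 100 and 95.2 at P1 and at 151 and 139 at P3, ratios of 0.59 and 0.54. Eif1a was at 28.1 and 26.4 at P1 and at 10.3 and 10.4 at P3, ratios of -1.37 and -1.26. Its X-linked relative Eif1ax was the more abundant in every library and lower at P3 by less, with ratios of -0.45 and -0.29. Eif1 and Eif1b on the one side and Eif1a and Eif1ax on the other thus lay on opposite sides of 0 in control.

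The 12 eIF3 subunits other than Eif3j lay on both sides of 0, with a median passage ratio of -0.06 in control and -0.02 in Lin28a. Their levels ran from 67.5 FPKM (Eif3g) to 243 (Eif3e) in P1 control and from 45.6 (Eif3b) to 258 (Eif3f) in P3 control. Eif3f, the member of the group with the highest mean level, was at 194 and 182 at P1 in control and Lin28a and at 258 and 251 at P3. The lowest ratios of the 12 were those of Eif3b, at -0.57 in control and -0.81 in Lin28a, and the highest were Eif3i at 0.55 in control and Eif3f at 0.46 in Lin28a. Eif3j, a loosely bound subunit, is encoded in the mouse by a pair of near-identical genes, between which reads may be divided in ways that differ from library to library. Eif3j1 was listed at 7.31 and 10.2 at P1 in control and Lin28a and at 27.1 and 29.7 at P3, and Eif3j2 at 28.9 and 29.6 at P1 and at 7.39 and 0.276 at P3. The separate values are therefore uncertain. The sum of the pair was 36.2 and 39.8 at P1 and 34.5 and 29.98 at P3, ratios of -0.066 and -0.40. In polysomes each of the pair was at 5.76 to 5.77 RPKM in both libraries. The ratios of the separate genes, 1.76 and 1.46 for Eif3j1 and -1.83 and -4.59 for Eif3j2 in control and Lin28a, were thus larger than those of the sum.

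Eif5, which triggers GTP hydrolysis by eIF2, was at 95.9 and 114 FPKM at P1 in control and Lin28a and at 67.1 and 76.7 at P3, ratios of -0.51 and -0.57. Eif6, which keeps the large ribosomal subunit from joining too early, was at 32.2 and 38.2 at P1 and at 41.8 and 31.4 at P3, on opposite sides in the cultures with ratios of 0.37 and -0.28. Eif5a was at 393 and 419 at P1 and at 308 and 281 at P3, ratios of -0.35 and -0.57. Eif5a2, its minor paralog, lay between 5.79 and 6.32 in the 4 RNA-seq libraries, and made up 1.36% to 2.20% of the pair.

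**Figure D3:**
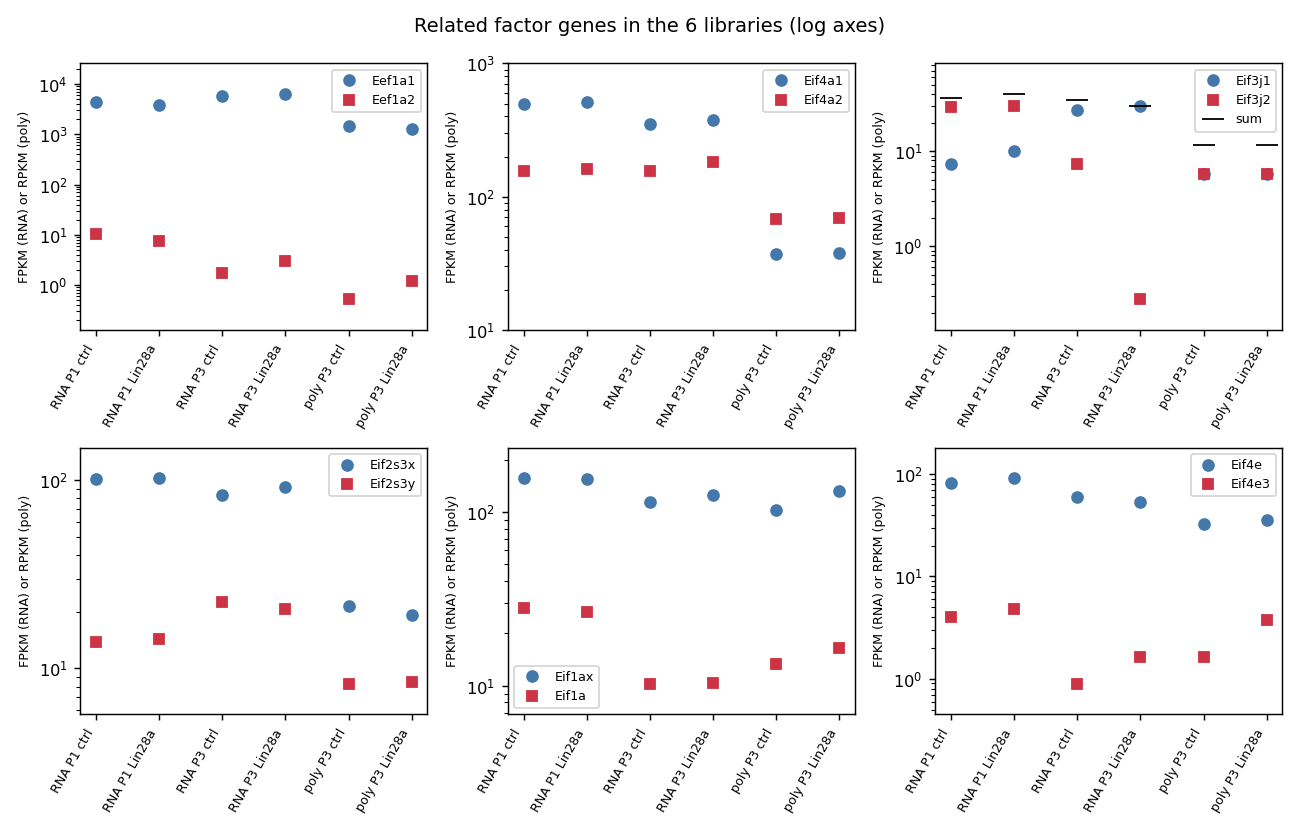
Levels of 6 pairs of related factor genes in the 6 libraries, on log axes in FPKM (RNA-seq) or RPKM (polysome-seq), 1 point per library. Eef1a2 and Eif1a are lower at P3, Eif2s3y is higher, Eif4a2 exceeds Eif4a1 in polysomes alone, and the black dashes show that the sum of Eif3j1 and Eif3j2 lies between 29.98 and 39.8 FPKM in RNA-seq.

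Lin28a against control gave small differences. At P1, 38 members were higher and 21 lower in Lin28a, beside 48.4% and 51.6% of all genes. None was past 1.5-fold in either direction, where 0.613% of all genes were higher and 0.963% lower, nor past 2-fold, where 0.135% and 0.0955% were. The largest were Eif3j1 at 0.43, whose separate value is uncertain, and Eef1a2 at -0.40. At P3, 36 members were higher and 23 lower, beside 48.5% and 51.5% of all genes. Past 1.5-fold 0 were higher and 1 lower, where 5.45% and 6.35% of all genes were. That 1, Eif3j2 at -2.72, was also the only member past 2-fold, where 1.31% of all genes were higher and 1.34% lower, and its value is uncertain as described. The members' median was 0.04 at both passages, beside -0.01 over all genes at both.

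The TOP list and the other members lay on opposite sides of 0 at P1. Of the list, 2 members were higher in Lin28a and 8 lower, with a median of -0.10, while 36 of the other 49 were higher and 13 lower, with a median of 0.08. At P3, 8 of the list were higher and 2 lower, with a median of 0.09, and 28 of the others were higher and 21 lower, with a median of 0.02. Upper-quartile scaling turned the list's P3 division to 10 and 0, where 54.9% of all genes were higher and 45.1% lower. Of the ribosomal protein genes, 27 were higher and 55 lower at P1 and 51 higher and 30 lower at P3, with medians of -0.02 and 0.04. Among single members, Eif3e had the largest ratio at P3 of those on the list, 0.45, from 184 FPKM in P3 control to 251 in P3 Lin28a, where the P1 libraries were at 243 and 248. The P3 control library was the low one of the 4. Eif2b2 at -0.46 and Eif6 at -0.40 were the lowest of the other members apart from Eif3j2.

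The difference between the cultures' passage ratios, Lin28a minus control, equals the difference between these virus ratios. Over the members it was above 0 in 29 and below in 30, beside 49.6% and 50.4% of all genes. Past 1.5-fold 1 was higher (Eef1a2, 0.97) and 2 lower, where 6.1% and 4.86% of all genes were. The 2 lower were Eif3j2 at -2.75, whose separate value is uncertain, and Eif6 at -0.64. Past 2-fold 0 were higher and 1 lower, where 1.55% and 0.898% were. Of the TOP list 9 of 10 were above 0, with a median of 0.23, led by Eif4b at 0.44 and Eif3e at 0.42, while the other members divided into 20 and 29 with a median of -0.03. All 10 neuronal genes were also above 0, with a median of 1.34, and their part was not tested. With upper-quartile scaling 39 members were above 0 and 20 below, beside 57.4% and 42.6% of all genes. The TOP list then had 10 of 10 above 0, and the other members divided into 29 and 20.

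In the polysome libraries, 45 members were higher in Lin28a than in control and 14 lower. Of all genes 62.8% were higher and 37.2% lower, with a median of 0.06, and the members' median was 0.07. With the median of all genes set to 0 the members divided into 30 and 29, and with upper-quartile scaling likewise. Past 1.5-fold 1 member was higher and 0 lower, where 3.69% and 1.51% of all genes were, and past 2-fold 0 were higher or lower, where 0.952% and 0.122% were. The 1 was Eif4e3, at 1.64 RPKM in control and 3.78 in Lin28a. The next were Eef1a2, at 0.516 and 1.20, and Eif6, at 10.5 and 15.7, with log2 ratios of 0.54 and 0.53. Eif4e3 and Eef1a2 are the members with the lowest mean levels over the 6 libraries.

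The most abundant elongation factor mRNAs were on the low side in the Lin28a polysomes. Eef1a1 stood at 1461 RPKM in control, against 1277 in Lin28a, a log2 ratio of -0.19. Eef2 was at 1050 and 843, a ratio of -0.32, and Eif4b at 250 and 208, a ratio of -0.26. These 3 were the lowest of the TOP list, whose division was 5 and 5, and 3 and 7 with the median of all genes set to 0. Of the other 49 members 40 were higher and 9 lower, and 27 and 22 with that setting. The lowest member of all was Eif2ak2, at 7.57 and 5.69, a ratio of -0.36.

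**Figure D4:**
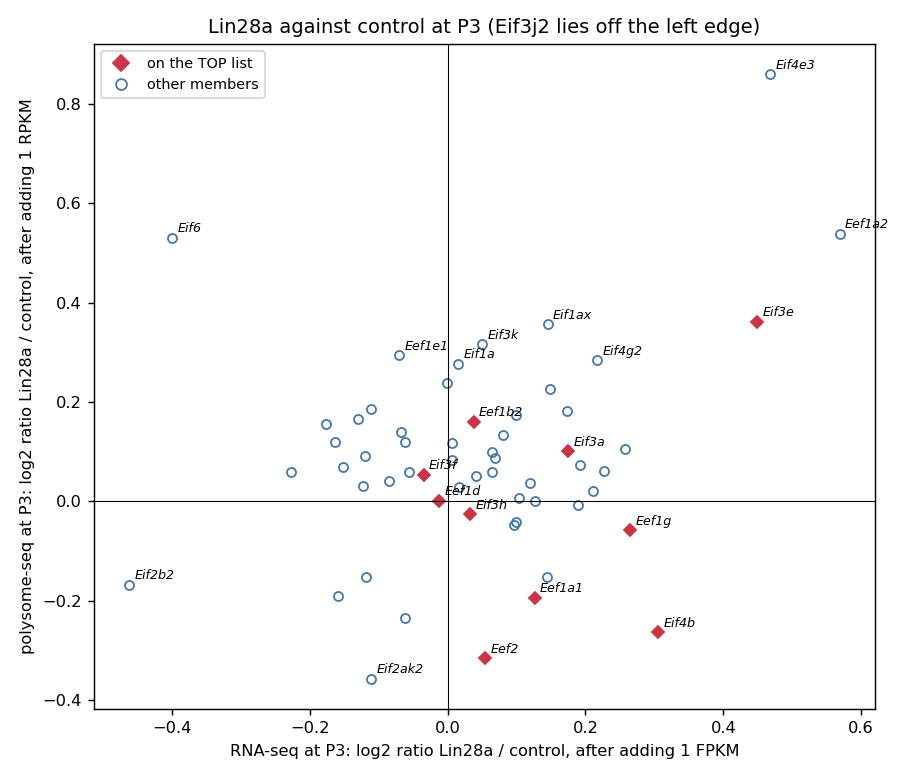
Log2 ratio of Lin28a to control at P3 in RNA-seq (x axis) and polysome-seq (y axis) for each factor gene, 1 point per gene, filled for the TOP list. Eif4e3, Eif6 and Eef1a2 lie highest, Eef1a1, Eef2 and Eif4b lie right of and below 0, and Eif3j2, at -2.72 on the x axis, lies outside the frame.

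The polysome-to-RNA ratio, the polysome log2 ratio of Lin28a to control minus that in RNA-seq at P3, was computed for the 53 members at 5 or more in all 4 P3 libraries. Of these 31 were higher in Lin28a and 22 lower, beside 60.7% and 39.3% of all genes, with medians of 0.02 and 0.07. With the median of all genes set to 0 they divided into 23 and 30, and with upper-quartile scaling, where the median of all genes was -0.040, into 18 and 35. Past 1.5-fold 1 was higher and 0 lower, where 4.46% and 1.6% of all genes were. Past 2-fold 0 were, where 0.358% and 0.0512% of all genes were. The 1 was Eif6, at 0.93, whose RNA was lower and whose polysome level was higher in Lin28a. The lowest were Eif4b at -0.57, Eef2 at -0.37, Eef1g at -0.32 and Eef1a1 at -0.32, all of them abundant and on the TOP list. Of the list 3 were higher and 7 lower, with a median of -0.08, and 2 and 8 with the median of all genes set to 0. Of the ribosomal protein genes 41 were higher and 38 lower, with a median of 0.01, and 30 and 49 with that setting.

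The assays ranked the members differently at P3. Within each culture, the polysome level was set against the RNA-seq level as a log2 ratio, centred on the median of all genes at 5 or more in both libraries. In control 20 of 55 members lay above that median and 35 below, 4 and 15 of them past 2-fold, where 9.38% and 15% of all genes were. In Lin28a 16 of 54 lay above and 38 below, 3 and 14 past 2-fold, where 7.59% and 12.5% were. The lowest listed values are 4.8e-07 in the RNA-seq tables and 0.00204 and 0.00331 in the polysome tables, and the part of a difference in counting in these ratios was not tested. The ribosomal protein genes lay much lower, at a median of -3.38 in control and -3.50 in Lin28a, with 70 of 79 below past 2-fold in each.

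**Figure D5:**
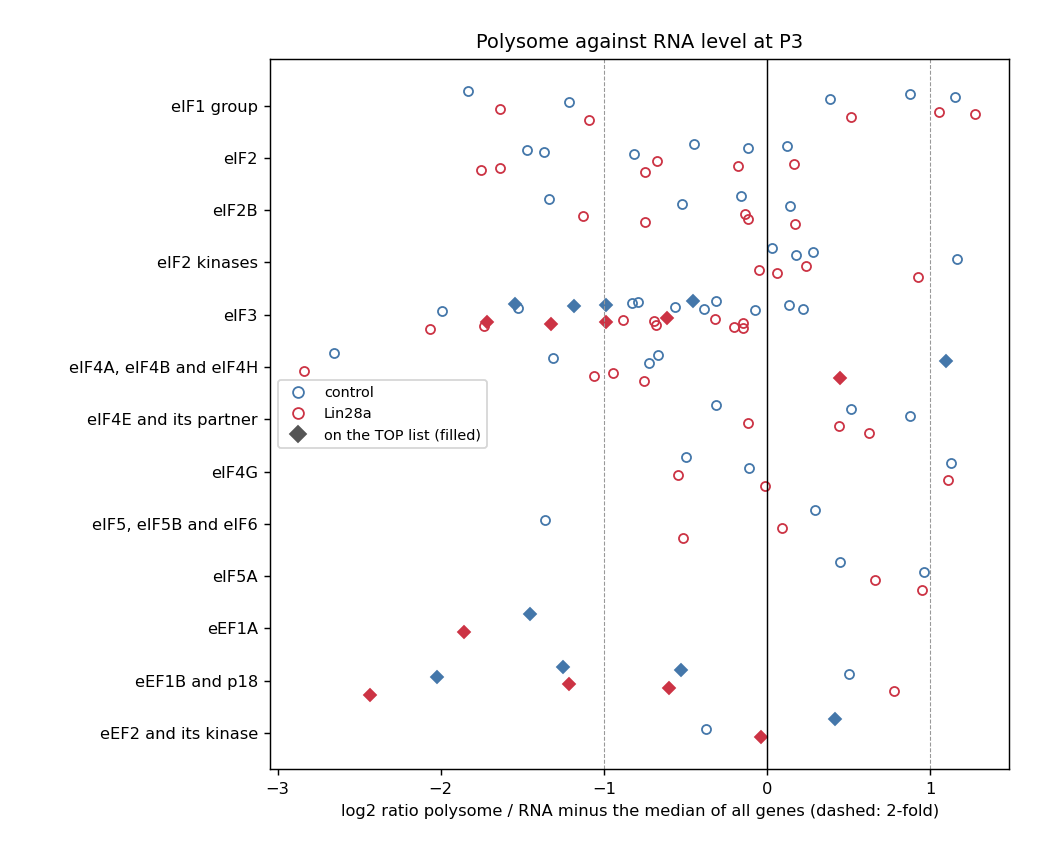
Log2 ratio of polysome to RNA-seq level at P3 minus the median of all genes (x axis), for each factor gene by factor group, in control and Lin28a, 1 ratio per gene and culture. Eif4a1 lies farthest left, at -2.66 and -2.84, and the 2 eIF5A genes lie right of 0 in both cultures.

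Eif4a1 had the lowest of these ratios. It was at 349 and 375 FPKM in RNA-seq at P3 and at 37.4 and 37.6 RPKM in polysomes, ratios of -2.66 and -2.84 in control and Lin28a. Eif4a2 was at 67.8 and 68.9 RPKM, so that the minor gene of the pair in RNA made up 64.4% and 64.7% of it in polysomes. Eef1g followed at -2.02 and -2.43, from 102 and 97.5 RPKM, and Eif3m at -1.99 and -2.06. Eif1 was at 65.5 and 68.3 RPKM and Eif1b at 44.5 and 47.5. Eef1g, Eif3m, Eif1 and Eif1b all lay below the median past 2-fold in both cultures. Of the eIF3 group, 2 of 14 lay above the median in control and 0 of 13 in Lin28a. The 2 in control were Eif3j2 at 0.22, whose separate value is uncertain, and Eif3g at 0.14. Eif3j2 was not compared in Lin28a, where its RNA-seq value was 0.276. Eif3f was at 89.3 and 92.7 RPKM.

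The highest ratios in control were those of Eif2ak4, Eif1ad, Eif4g2 and Eif4b. Eif4g2 was at 242 and 295 RPKM, ratios of 1.13 and 1.11, while Eif4g1 was at 34.2 and 36.7 and Eif4g3 at 16.1 and 17.6. Eif2ak4 was at 10.4 and 11.3, ratios of 1.16 and 0.93, and Eif2ak1 at 13.4 and 15.3. Eif1ad, a nuclear relative of eIF1A, lay at 1.15 and 1.28. Eif4b was at 1.10 in control and 0.45 in Lin28a, the largest gap between the cultures of the members on the TOP list. Eef2 lay at 0.42 in control and -0.04 in Lin28a, and Eef1a1 below the median in both, at -1.45 and -1.86.

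The remaining genes named above had polysome levels in the same range. Eif1a was at 13.3 and 16.4 RPKM in control and Lin28a, Eif2s1 at 16.0 and 17.1, Eif2s3x at 21.5 and 19.3 and Eif2s3y at 8.29 and 8.49. Eif2b2 was at 14.4 and 12.7, and Eif2b3 at 4.78 and 5.82. Those of the cap-binding group were higher in Lin28a throughout, and so were the eIF4G genes. Together 7 of 7 were higher, beside 62.8% of all genes, and 6 of 7 with the median of all genes set to 0. The median log2 ratio of the 7 was 0.12, beside 0.06 over all genes. Eif4e was at 32.7 and 35.6, Eif4e2 at 27.4 and 31.2 and Eif4enif1 at 16.6 and 17.3. Eif4a3 was at 15.4 and 17.2, Eif5 at 56.9 and 59.9, Eif5a at 292 and 327 and Eif5a2 at 8.24 and 9.42. Of the elongation genes, Eef1b2 was at 80.6 and 90.2, Eef1e1 at 29.8 and 36.7 and Eef2k at 5.94 and 4.90. The kinase of eEF2 was thus on the low side in Lin28a polysomes, as Eef2 was.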

How the data were processed

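The RNA-seq values are FPKM and the polysome values RPKM, deposited by the authors as 1 value per RefSeq gene and library. The file headers do not name these units, which follow from the tools listed and from the spacing of low values. The tools are Cufflinks 2.1.1, TopHat2 2.0.6 and Bowtie 1.0.0 with build mm9, per the submitters' processing notes. Genes with no estimate are listed at a floor of 4.8e-07 in RNA-seq and of 0.00204 and 0.00331 in the control and Lin28a polysome libraries. Which gradient fractions were sequenced is not stated in the labels. Absolute depth is unknown, so no counting interval is given. Relative depth was estimated from the most frequent ratio among low values of 2 libraries. It came to 1.15, 1.01 and 1.03 times that of P1 control for P1 Lin28a, P3 control and P3 Lin28a. For polysome Lin28a against its control it was 1.04. That ratio was held by 114 of 2656, 26 of 2058, 45 of 2149 and 241 of 2570 low genes in that order, so the P3 RNA-seq estimates are weak.

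All 59 member symbols matched the reference name table. Log2 ratios were computed with a pseudocount of 1, in Python 3.11.15 with numpy 2.4.6, pandas 2.3.3 and matplotlib 3.10.9, and the calculation was tested on simulated data. The members, groups and lists were chosen with earlier results of these data known. Named with all values were 36 members: in each group the one with the highest level and the 2 with the largest ratios, every member past 2-fold, and sets of paralogs. Other genes are given by list. Alternatives were a pseudocount of 0.1, filters of 5 in every library or none, and centring or upper-quartile scaling. The 4 small RNA libraries were not used, and 0 columns belonged to other samples. Starts came from RefSeq (GRCm38.p6) by symbol, for 48 members.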

Additional observations from a re-analysis of the deposited data

Results flagged for a closer look

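Eef1a2, the eEF1A form of mature neurons and muscle, lay on opposite sides in the passages when Lin28a was set against control. Its log2 ratio was -0.40 at P1, from 10.4 FPKM in control to 7.61 in Lin28a, and 0.57 at P3, from 1.71 to 3.02. It was picked out because 1 Lin28a library stands below its control and the other above it, past a set fold each way. Of all members it had the lowest ratio at P1 and the highest at P3. A change of side alone was not particular to it. Eif6 was at 0.24 at P1 and -0.40 at P3, and Eif4e at 0.15 and -0.16. The neuronal markers lay on the same sides as Eef1a2. In Lin28a 10 of 10 were lower at P1 (median -0.27) and 9 of 9 compared higher at P3 (median 1.21), and their part was not tested. With 1 library per group the difference was not tested.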

How the results depend on the processing

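No paired analysis was possible because each group held 1 library, and the labels give no replicate numbers. The results come from no test. A fit of virus and passage as additive terms over the 4 RNA-seq libraries, which leaves 1 residual degree of freedom, was not run. Of 48 medians under the alternatives 46 stayed within 0.1 on the log2 scale, and of 96 counts past 1.5-fold 83 stayed within 1.5 times. Of 1646 values of single genes 1563 stayed within 0.1, 81 moved by more, and 2 past 1.5-fold changed sign. Many of these values could not move. Changing the filter or leaving out the Eif2ak and Eef2k kinases only adds or removes genes. Centring shifts every gene of a comparison alike, by at most 0.07. With upper-quartile scaling 61 of 247 single-gene values moved, and with a pseudocount of 0.1 17 of 247 did. Of 407 member ratios, 51 changed sign with upper-quartile scaling, 25 with the median of all genes set to 0 and 0 with a pseudocount of 0.1, and the largest of these was 0.11 from 0 as deposited. With a pseudocount of 0.1, 2 members were higher past 1.5-fold in Lin28a at P3 in RNA-seq (0 before) and 2 in polysomes (1 before). Of all genes 999 of 12716 were then higher in RNA-seq (693 before) and 713 of 12289 in polysomes (454 before). With 5 or more required in every library, 0 members were lower at P3 in RNA-seq (1 before) and 0 were higher in polysomes (1 before). The difference between the passage ratios then had 0 higher and 1 lower (1 and 2 before). The share of all genes under that filter is not given here. Upper-quartile scaling gave 1 member higher at P3 in RNA-seq and 1 lower in the difference between the passage ratios. Of all genes 835 of 12691 were then higher at P3 in RNA-seq, and 510 of 13144 lower in that difference. The control passage median moved to -0.20 (from -0.10) with 18 lower (10 before). Of all genes 3122 of 13002 were then lower past 1.5-fold in control (2578 of 13011 before). The same scaling moved the polysome-to-RNA median to -0.10 (from 0.02). The polysome-to-RNA ratio had 1 member lower under that scaling and with the median of all genes set to 0, against 0. Of all genes 236 of 7772 and 198 of 7817 were lower under these settings, against 125 of 7817. Eif3j1 and Eif3j2 summed as 1 gene, an alternative chosen after seeing the data, left 0 lower at P3 in RNA-seq and 1 lower in the difference between the passage ratios, and turned the Eif3j1 passage ratio from 1.76 to -0.066 in control and from 1.46 to -0.40 in Lin28a. Depth, which is unknown, limits low values such as those of Eif4e3 and Eef1a2. Causes of the changes were not tested, apart from fewer genes where a filter removed them.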
